A study of Sus scrofa with 9 samples.

Results

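The genes described here are CIRBP, RBM3, CLK1 and CLK4, which encode cold-inducible RNA-binding proteins and kinases of the splicing machinery, in porcine hearts that had been stored cold and then rewarmed. They were chosen by name from a list of 6 genes. CIRBP, CLK1 and CLK4 carried their symbol in the expression table, RBM3 had an empty symbol cell and was found by its Ensembl identifier (ENSSSCG00000021591), and the remaining 2 genes of the list, SRSF5 and RTN3, matched no row by symbol or identifier and were not analysed here. The 4 genes measured are 4 of 25149 listed, and all 4 passed the filter on low values (at least 1 TPM in at least 3 hearts) that left 11782 genes for testing.

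Bulk RNA sequencing covered 9 hearts of female American Yorkshire pigs aged 4 to 6 months and weighing 40 to 50 kg, 3 pigs in each of 3 groups. Every donor underwent simulated donation after circulatory death (DCD) with 15 min of warm ischemia, every heart ended with 2 h of normothermic machine perfusion (NMP, perfusion at body temperature on a bench-top circuit), and every biopsy came from the apex at the end of NMP. Group 1 hearts (NRP + HOPE 24 h, pigs 27, 28 and 30) received 60 min of normothermic regional perfusion (NRP, which restores warm circulation inside the donor) and then 24 h of hypothermic oxygenated perfusion (HOPE) at 8 °C. Group 2 hearts (NRP + SCS 2 h, pigs 24, 25 and 29) received the same NRP and then 2 h of static cold storage (SCS) at 4 °C. Group 3 hearts (No NRP + HOPE 2 h, pigs 31, 33 and 34) were procured directly and kept on HOPE for 2 h at 8 °C. Storage method, duration and temperature therefore changed together between Groups 1 and 2, and NRP, method and temperature between Groups 3 and 2. Both comparisons share the Group 2 hearts. The comparison of Groups 1 and 3, in which NRP and duration changed, was added here so that the group levels could be ordered. No biopsy from before storage or before rewarming was analysed here, so the levels below describe tissue after NMP. The hearts came from different animals, so the spread between them includes the spread between pigs.

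CIRBP and RBM3 are small, glycine-rich proteins with an RNA recognition motif, and their transcripts are known to accumulate when mammalian cells are cooled moderately. CLK1 and CLK4 are CDC-like kinases, which phosphorylate the serine- and arginine-rich (SR) proteins that choose splice sites; the activity of these kinases is known to rise as temperature falls, and their own transcripts are partly held in the nucleus with introns retained. SRSF5 is an SR protein, and RTN3 is a reticulon of the endoplasmic reticulum whose translation RBM3 promotes in neurons. The table gives 1 value for each gene, so splice forms, retained introns and protein were not measured.

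Values are TPM (transcripts per 1000000), a level per length of transcript in which every heart has the same total of 1000000, so the genes can be set against each other. Read counts were not used here, so sequencing depth is unknown and no counting interval or detection floor is given. Differences are log2 fold changes on the log2(TPM + 1) scale from limma, fitted to all 9 hearts in 1 model. A gene was called at a Benjamini-Hochberg adjusted p under 0.05 over all genes tested together with an absolute log2 fold change over 1. None of the 4 genes was called in any of the 3 comparisons, and none reached an unadjusted p under 0.05. The background was low too. Of all genes, 0.0255% were called between Groups 1 and 2, 0.0509% between Groups 3 and 2, and 0.0509% between Groups 1 and 3, while 4.97%, 7.22% and 6.01% had an unadjusted p under 0.05. Pigs 27 and 30 of Group 1 and pig 31 of Group 3 stood apart. The size factors (the median level of many genes relative to the average heart) of pigs 27 and 31 were 0.737 and 0.781. Pigs 27 and 31 also had the highest mitochondrially encoded shares of TPM. Pig 30 had the highest size factor (1.34) and the lowest mitochondrially encoded share (38.2%). The size factors of the other hearts were 0.916 to 1.18. Values without pigs 27, 30 or 31 are given where they matter.

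RBM3 was the most abundant of the 4 genes in each of the 9 hearts, followed by CIRBP, CLK1 and CLK4. Over all hearts RBM3 ran from 194 to 331 TPM, CIRBP from 86.8 to 186 TPM, CLK1 from 31.9 to 80.2 TPM and CLK4 from 7.51 to 19.0 TPM. The lowest heart of each gene thus stood above the highest heart of the next gene in this order. Among the 11782 genes tested, RBM3 stood between the 96.6 and 98.2 percentile of level in every heart, CIRBP between the 94.8 and 96.0, CLK1 between the 82.0 and 93.0, and CLK4 between the 54.8 and 74.3. The spread within groups was below that of the median gene (SD of 0.42 on the log2 scale) for all 4, at 0.29 for RBM3, 0.37 for CIRBP, 0.32 for CLK1 and 0.29 for CLK4.

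**Figure D1:**
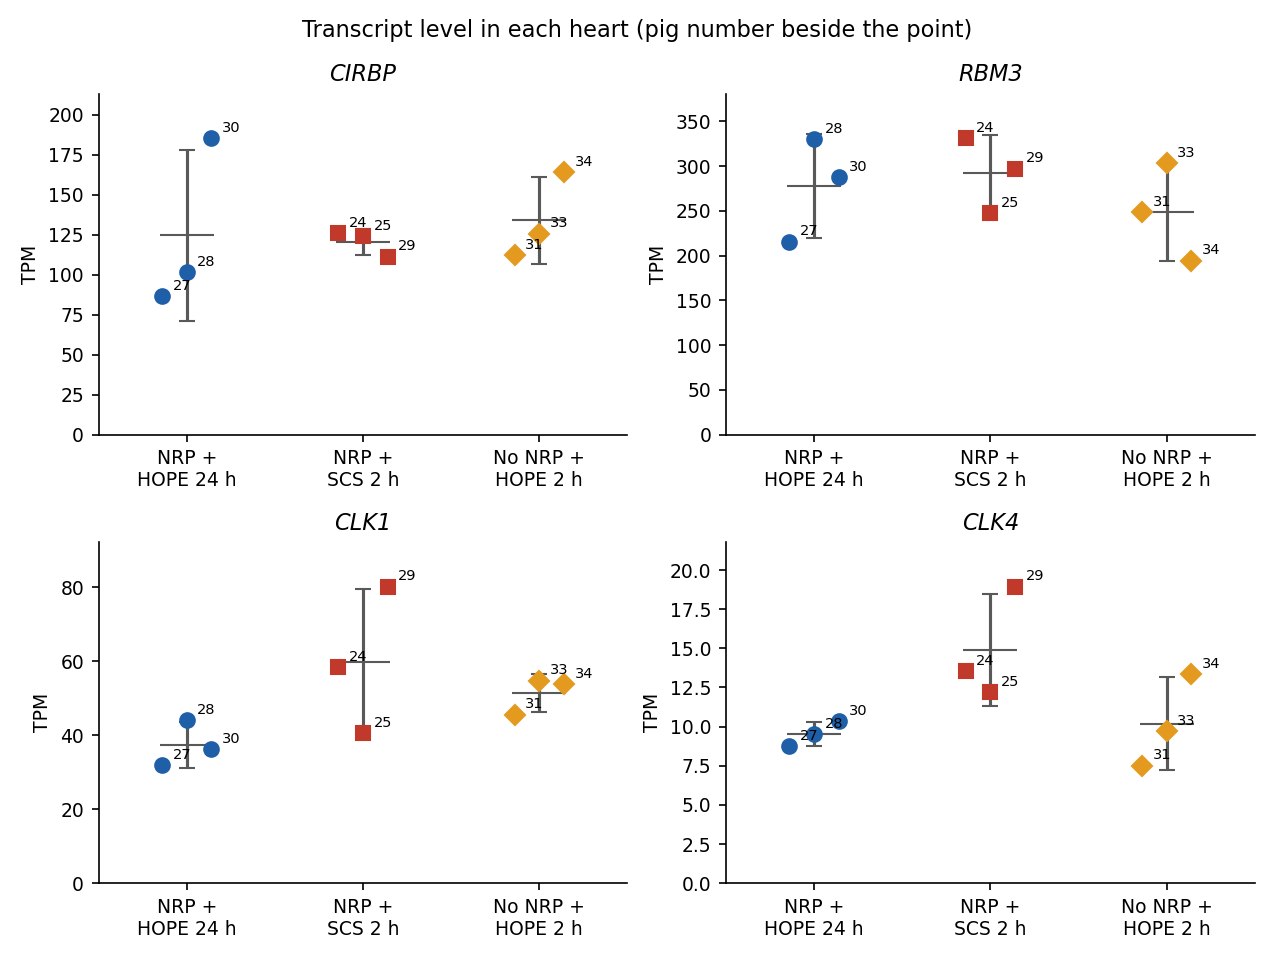
TPM (y axis, from 0) of CIRBP, RBM3, CLK1 and CLK4 in each of the 9 hearts (points, labelled with the pig number) by group, with the group mean (horizontal line) and SD (bars, n = 3). CLK1 and CLK4 in pigs 27, 28 and 30 sit at the low end of their panels, while CIRBP in the same 3 hearts covers the whole range from 86.8 to 186 TPM.

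CIRBP, the cold-inducible RNA-binding protein, stood at 86.8, 102 and 186 TPM in pigs 27, 28 and 30 of Group 1. It stood at 126, 124 and 111 TPM in pigs 24, 25 and 29 of Group 2, and at 112, 126 and 164 TPM in pigs 31, 33 and 34 of Group 3. The Group 1 hearts held both the lowest and the highest value, the Group 2 hearts lay close together, and all 3 groups overlapped. The means were 125 ± 53.3 TPM in Group 1, 121 ± 7.97 TPM in Group 2 and 134 ± 27.1 TPM in Group 3 (SD, n = 3), which puts Group 3 first, Group 1 next and Group 2 last, with neighbouring means closer than the spread within Group 1. The log2 fold change was -0.03 between Groups 1 and 2 (95% interval -0.68 to 0.62; limma, Benjamini-Hochberg adjusted p = 0.997), 0.14 between Groups 3 and 2 (-0.51 to 0.78; adjusted p = 0.968) and -0.17 between Groups 1 and 3 (-0.81 to 0.48; adjusted p = 0.99). The Group 1 mean rests on pig 30: without it the difference from Group 2 was -0.36, and without pig 27 it was 0.19.

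RBM3, the second cold-inducible RNA-binding protein, stood at 216, 331 and 288 TPM in pigs 27, 28 and 30. It stood at 331, 247 and 297 TPM in pigs 24, 25 and 29, and at 249, 304 and 194 TPM in pigs 31, 33 and 34. Each group held hearts on both sides of the mean over all 9 hearts (273 TPM), and all 3 groups overlapped. The means were 278 ± 58.0, 292 ± 42.2 and 249 ± 54.6 TPM in Groups 1, 2 and 3 (SD, n = 3), a total range smaller than the SD within Group 1. The log2 fold change was -0.083 between Groups 1 and 2 (95% interval -0.65 to 0.48; limma adjusted p = 0.993), -0.24 between Groups 3 and 2 (-0.81 to 0.32; adjusted p = 0.909) and 0.16 between Groups 1 and 3 (-0.40 to 0.72; adjusted p = 0.989). The difference between Groups 3 and 2 was -0.40 without pig 33, -0.077 without pig 34 and -0.041 with array weights. Between Groups 1 and 2, where storage method, duration and temperature all changed, the intervals of both cold-inducible genes ran between -0.68 and 0.62 on the log2 scale, inside the fold change needed for a call.

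CLK1, a kinase of SR proteins, stood at 31.9, 44.0 and 36.3 TPM in pigs 27, 28 and 30. It stood at 58.5, 40.5 and 80.2 TPM in pigs 24, 25 and 29, and at 45.6, 54.8 and 53.9 TPM in pigs 31, 33 and 34. Of the Group 1 hearts only pig 28 reached into the Group 2 range, above pig 25 alone, and all 3 lay below each Group 3 heart. The means were 37.4 ± 6.16, 59.7 ± 19.9 and 51.4 ± 5.09 TPM in Groups 1, 2 and 3 (SD, n = 3). The log2 fold change was -0.62 between Groups 1 and 2 (SE 0.295, 95% interval -1.25 to 0.015), with an unadjusted p of 0.0548 and a limma adjusted p of 0.993. It was -0.46 between Groups 1 and 3 (-1.09 to 0.18; adjusted p = 0.931) and -0.16 between Groups 3 and 2 (-0.80 to 0.47; adjusted p = 0.951). The difference between Groups 1 and 2 ran from -0.87 without pig 25 to -0.38 without pig 29, and was negative in all 18 alternative settings, of which 4 gave an unadjusted p under 0.05 (range of adjusted p 0.482 to 1.0). Groups 2 and 3 were neighbours in the order and overlapped.

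CLK4, the closely related kinase, stood at 8.77, 9.53 and 10.3 TPM in pigs 27, 28 and 30. It stood at 13.5, 12.2 and 19.0 TPM in pigs 24, 25 and 29, and at 7.51, 9.71 and 13.4 TPM in pigs 31, 33 and 34. Each Group 1 heart was below each Group 2 heart, and the Group 3 hearts spanned both. The means were 9.54 ± 0.782, 14.9 ± 3.56 and 10.2 ± 2.96 TPM in Groups 1, 2 and 3 (SD, n = 3). The log2 fold change was -0.57 between Groups 1 and 2 (SE 0.304, 95% interval -1.23 to 0.081), with an unadjusted p of 0.0813 and a limma adjusted p of 0.993. It was -0.52 between Groups 3 and 2 (-1.17 to 0.14; adjusted p = 0.796; -0.34 without pig 31, -0.34 without pig 29 and -0.71 without pig 34) and -0.055 between Groups 1 and 3 (-0.71 to 0.60; adjusted p = 0.996). The difference between Groups 1 and 2 was negative in all 18 alternative settings (-0.70 without pig 25, -0.40 without pig 29), with 2 of them at an unadjusted p under 0.05 (range of adjusted p 0.323 to 1.0).

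Groups that did not overlap were read against the share of all genes that behaved likewise. When Group 1 was set against Group 2, 1 of the 4 genes (CLK4) was separated downward and 0 upward, where 7.32% of all genes were separated downward and 2.5% upward. With Group 3 in place of Group 2, 1 of 4 (CLK1) was separated downward and 0 upward, against 4.51% and 2.97% of all genes. Between Groups 3 and 2, 0 of 4 were separated in either direction, against 10.3% downward and 4.44% upward. For CLK4 between Groups 1 and 2 and for CLK1 between Groups 1 and 3, the exact two-sided permutation test gave p = 0.1, the smallest that 3 hearts against 3 allow. Both separations were lost after median-of-ratios scaling (a factor for each heart taken over many genes in place of the TPM total), under which the log2 fold change was -0.43 for CLK4 and -0.41 for CLK1, and that of CLK4 also after quantile normalization.

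**Figure D2:**
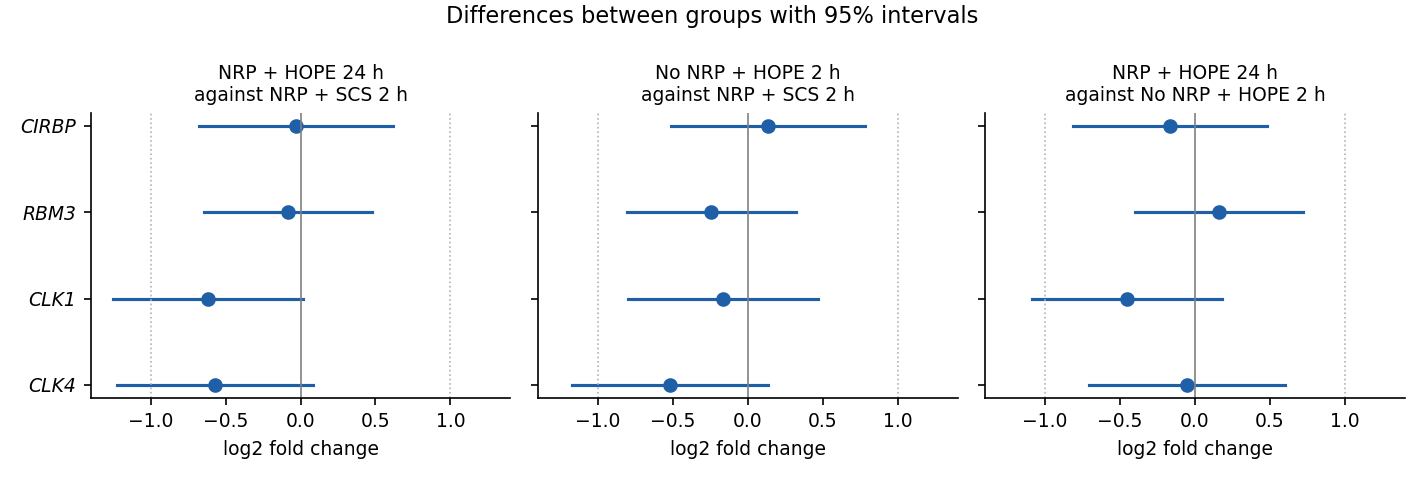
Log2 fold change (x axis, points) with its 95% interval (bars) for each gene in the 3 comparisons, where dotted lines mark the fold change needed for a call and the solid line marks no difference. All 12 intervals include 0, and the intervals of CLK1 and CLK4 between Groups 1 and 2 reach furthest to the lower side.

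On the log2(TPM + 1) scale all 4 genes had a negative difference between Groups 1 and 2 (median -0.33), although the mean TPM of CIRBP was higher in Group 1 (125 against 121 TPM). The difference was negative for 3 of 4 between Groups 3 and 2 (median -0.20) and 3 of 4 between Groups 1 and 3 (median -0.11). All genes tested had medians of -0.12, -0.074 and -0.035, with 64.1%, 57.7% and 53.9% of them negative. The medians of the 4 genes moved when single hearts were left out, and only the third took both signs. With a heart left out the first ran from -0.48 (without pig 30) to -0.21 (without pig 27, when 2 of 4 were negative), the second from -0.38 (without pig 25) to -0.076 (without pig 29, 2 of 4), and the third from -0.28 (without pig 30) to 0.025 (without pig 27, 2 of 4). Array weights brought the second to -0.023. Median-of-ratios scaling brought the medians of the 4 genes to -0.19, -0.10 and -0.065 and the first all-gene median to 0.00. Relative to that centre, CIRBP (0.12) and RBM3 (0.065) were then positive between Groups 1 and 2, while CLK1 and CLK4 stayed negative in each alternative tried.

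The ratio of a pair of genes within a heart does not depend on the TPM total. These ratios were chosen after the values had been seen. RBM3 over CIRBP was 2.49, 3.25 and 1.55 in pigs 27, 28 and 30, then 2.63, 2.00 and 2.67 in pigs 24, 25 and 29, and 2.21, 2.42 and 1.18 in pigs 31, 33 and 34. RBM3 was the higher of the pair in every heart, least so in pigs 34 and 30, and the groups overlapped (exact two-sided permutation p of 0.8, 0.5 and 0.5 for Groups 1 and 2, 3 and 2, and 1 and 3). CLK1 over CLK4 was 3.63, 4.62 and 3.51 in pigs 27, 28 and 30, then 4.32, 3.31 and 4.23 in pigs 24, 25 and 29, and 6.07, 5.64 and 4.03 in pigs 31, 33 and 34. On the log2 scale this ratio was 1.96 ± 0.22 in Group 1 and 1.97 ± 0.21 in Group 2 (SD, n = 3), a difference of -0.012 (exact two-sided permutation p = 1.0). The 2 highest ratios of CLK1 to CLK4 came from Group 3, whose mean of 2.37 ± 0.32 was higher than that of Group 2 by 0.40 (exact p = 0.3). Group 1 minus Group 3 was -0.41 (exact p = 0.2).

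All 6 pairs of the genes were correlated over the 9 hearts on log2(TPM + 1), with exact two-sided permutation p-values adjusted over the 6 by Benjamini-Hochberg. CLK1 and CLK4 gave Pearson's r = 0.73 (exact p = 0.0247, adjusted p = 0.148) and Spearman's rho = 0.62 (exact p = 0.0857, adjusted p = 0.514), and r = 0.70 on deviations from the group means. For this pair r was 0.70 after median-of-ratios scaling and 0.75 with mitochondrial genes left out. Without pigs 29 and 27, the hearts farthest from the median of CLK1, r was 0.34. Leaving out the extremes of CLK1 also narrows its range, so this value cannot show whether the relation rests on those hearts. CIRBP and RBM3 gave r = -0.069 (exact p = 0.861, adjusted p = 0.861) and rho = 0.0 (exact p = 1.0), with r = -0.72 without pigs 30 and 27, -0.47 after median-of-ratios scaling and -0.51 with mitochondrial genes left out. The other 4 pairs had r between 0.073 and 0.34 (exact p from 0.369 to 0.852, adjusted p = 0.861) and rho between 0.17 and 0.48, and r without their 2 farthest hearts was between 0.066 and 0.37. None of the 6 pairs passed the adjustment.

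**Figure D3:**
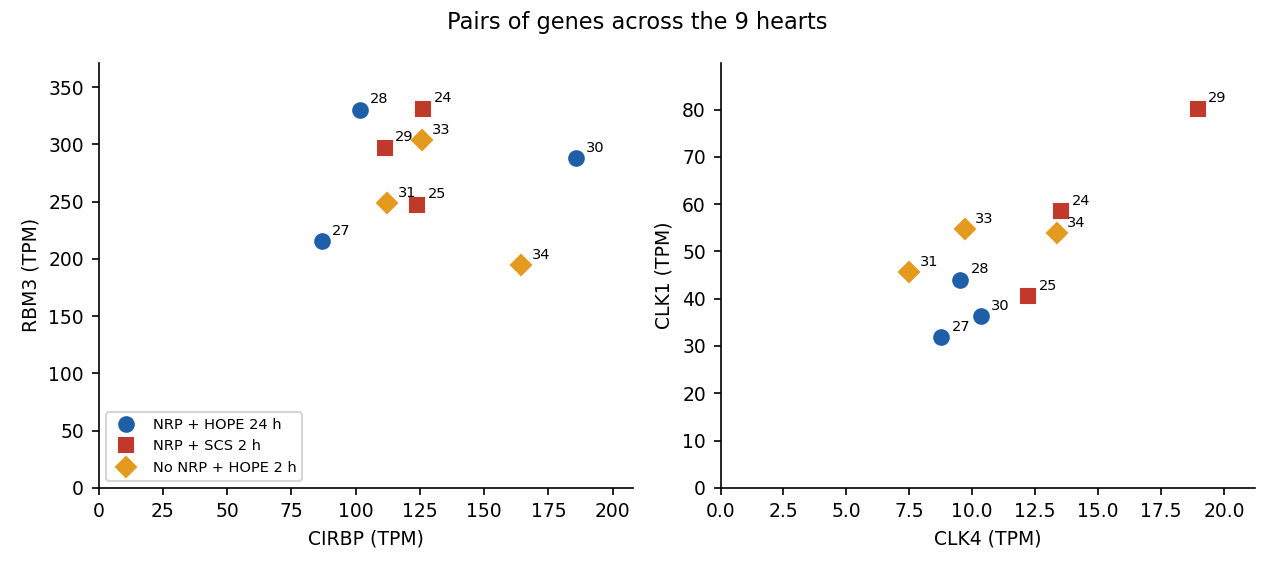
RBM3 against CIRBP (left) and CLK1 against CLK4 (right), both axes in TPM, with 1 point for each heart labelled by pig number and coloured by group. CLK1 and CLK4 are both highest in pig 29 (80.2 and 19.0 TPM), and CIRBP is highest in pig 30 while RBM3 is not.

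The CIRBP values followed the share of TPM held by the 13 mitochondrially encoded protein genes. This share was 55.4%, 54.7% and 38.2% in pigs 27, 28 and 30, then 48.6%, 49.5% and 52.7% in pigs 24, 25 and 29, and 55.0%, 49.1% and 44.8% in pigs 31, 33 and 34. Pig 30, with the lowest share, had the highest CIRBP, and pig 27, with the highest share, had the lowest. CIRBP and the share gave r = -0.95 (exact two-sided permutation p = 5.24e-05, adjusted p = 0.0002 over the 4 genes) and rho = -0.95 (exact p = 0.000353, adjusted p = 0.0014). It was -0.94 without pigs 30 and 27 and -0.98 on deviations from the group means. This relation was examined after the values had been seen, and TPM are parts of 1 total, so a larger mitochondrial share lowers the other genes by construction: the median r of 11769 genes was -0.50. Of these genes, 0.187% had an r at or below that of CIRBP. With the mitochondrial genes removed and TPM rescaled r was -0.85, and with median-of-ratios scaling it was -0.45 (exact p = 0.221). Under that scaling the CIRBP level ran from 104 to 144 scaled TPM, a 1.39-fold range in place of the 2.14-fold range as deposited.

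The other 3 genes did not track the share in this way. RBM3 gave r = 0.021 (exact p = 0.958), CLK1 r = 0.073 (exact p = 0.847) and CLK4 r = -0.22 (exact p = 0.565), each with an adjusted p of 0.958. Their rho values were -0.10, -0.22 and -0.58 (exact p of 0.81, 0.581 and 0.108), and r without pigs 30 and 27 was 0.48, -0.12 and -0.38. The share of genes with an r at or below theirs was 91.7%, 93.2% and 79.9%. After median-of-ratios scaling RBM3 ranged 2.20-fold over the hearts, CLK1 2.76-fold and CLK4 2.29-fold, and their r with the share became 0.73 (exact p = 0.0276, adjusted p = 0.11), 0.67 (adjusted p = 0.111) and 0.45.

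**Figure D4:**
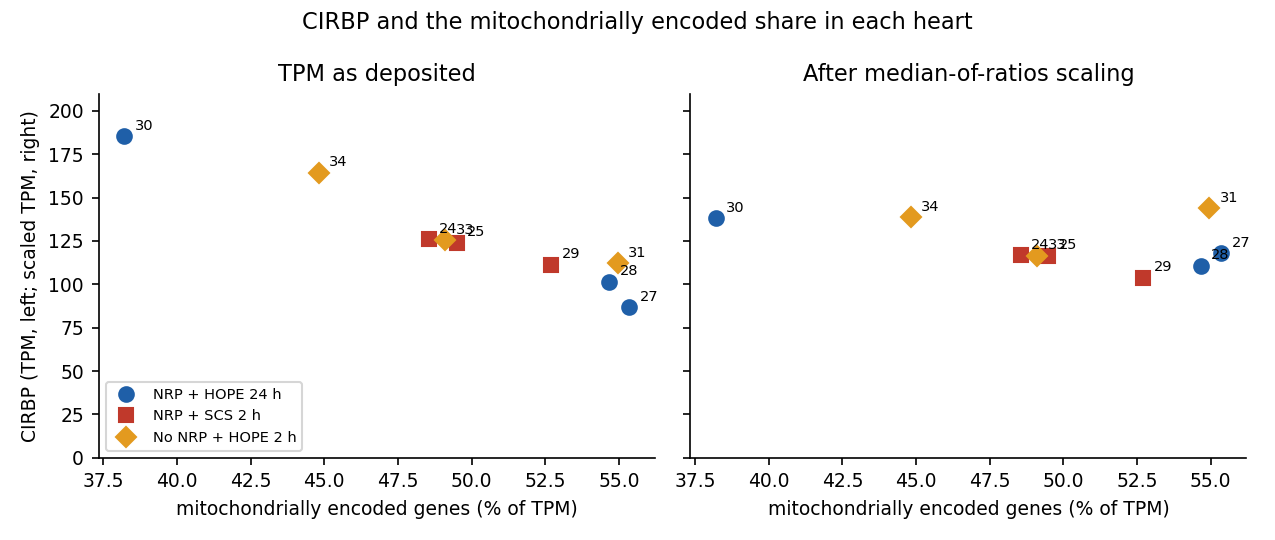
CIRBP (y axis, TPM at left and TPM after median-of-ratios scaling at right, both from 0) against the percent of TPM from mitochondrially encoded protein genes (x axis), 1 point for each heart with its pig number. The points at left fall from pig 30 (186 TPM at 38.2%) to pig 27 (86.8 TPM at 55.4%), and the points at right lie between 104 and 144.

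Genes whose levels ran nearest to each of the 4 over the 9 hearts were sought among all named genes, by the mean absolute difference of centred log2(TPM + 1). CIRBP was nearest to POLR3K (0.066), ETFB (0.069) and USP11 (0.074). RBM3 was nearest to EXT1 (0.076), DNAJC2 (0.091) and NOX1 (0.095). CLK1 was nearest to RSRC1 (0.10), CSPP1 (0.12) and MYO9A (0.13), at larger distances than for the other 3. The nearest to CLK4 were PIAS4 (0.08), NKTR (0.099) and SRSF11 (0.10), of which NKTR, a cyclophilin with SR-like repeats, and SRSF11, an SR-related splicing factor, also belong to the lists described next.

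The substrates of the kinases, the other SR splicing factors, had 9 of 13 written genes in the table and 8 tested. In Group 1 against Group 2, 6 of the 8 were lower (median -0.29), with 0 called by limma, 1 at an unadjusted p under 0.05 and 2 separated downward, where 4.97% and 7.32% of all genes were. Without pig 27 the median was -0.067 with 4 of 8 lower. SRSF11 stood at 72.7, 78.0 and 74.2 TPM in pigs 27, 28 and 30 against 115, 95.3 and 136 TPM in pigs 24, 25 and 29 (log2 fold change -0.60, SE 0.257, limma adjusted p = 0.954). All 3 Group 1 hearts lay below all 3 Group 2 hearts, though not in 2 of the 18 alternative settings. Between Groups 3 and 2, 6 of 8 were again lower (median -0.22), with 0 called, 1 at an unadjusted p under 0.05 (7.22% of all genes) and 3 separated downward (10.3% of all genes). Without pig 31 the median was -0.061 with 4 of 8 lower. SRSF1, a founding SR protein, stood at 38.4, 39.1 and 38.8 TPM in pigs 31, 33 and 34 against 63.6, 57.4 and 68.6 TPM in pigs 24, 25 and 29 (-0.69, adjusted p = 0.596), and the groups were separated in all 18 alternatives. SRSF1 was also below Group 2 in Group 1 (31.4, 48.2 and 49.2 TPM; -0.57, adjusted p = 0.993). SRSF9 differed by -0.51 between Groups 3 and 2 (adjusted p = 0.756). In Group 1 against Group 3, 4 of 8 were lower (median 0.01, and from -0.12 without pig 31 to 0.16 without pig 27), and SRSF9 (0.33) and SRSF3 (-0.32) had the widest differences.

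The other kinases that act on SR proteins, 10 of 10 tested, had medians of -0.27, -0.13 and -0.11 in the comparisons of Groups 1 and 2, 3 and 2, and 1 and 3. Of the 10, 7, 8 and 5 were lower, 0 were called by limma, and 0 had an unadjusted p under 0.05 (0 to 3 lower genes over the alternatives). The first median was -0.10 without pig 27, the second was 0.049 without pig 31, when 4 of 10 were lower, and the third ran from -0.38 without pig 30 to 0.078 without pig 34. DYRK2, a kinase of the family related to the CLKs, stood at 5.08, 9.72 and 18.6 TPM in Group 1, 20.8, 21.8 and 12.7 TPM in Group 2 and 5.94, 12.1 and 11.8 TPM in Group 3. Its Group 1 values overlapped those of Group 2 (-0.80, adjusted p = 0.993), and the difference ran from -1.23 without pig 30 to -0.39 without pig 27. Each Group 3 heart lay below each Group 2 heart (-0.85, adjusted p = 0.725; -1.08 to -0.55 over the alternatives). Of the 10 kinases 1 was thus separated downward between Groups 3 and 2 and 1 upward (PRPF4B, named after its values were seen), where 10.3% and 4.44% of all genes were. SRPK3, a muscle-enriched SR protein kinase, differed by -0.65 between Groups 1 and 2 and SRPK2 by -0.56 between Groups 3 and 2. Between Groups 1 and 3, SRPK1 (0.59) and SRPK2 (0.54) had the widest differences of the list.

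A list of nuclear speckle proteins and genes known for retained introns, as CLK1 and CLK4 are, had 17 of 22 written genes tested. Between Groups 1 and 2 all 17 were lower (median -0.50, against -0.12 for all genes), with 0 called by limma, 0 at an unadjusted p under 0.05 and 7 separated downward, where 7.32% of all genes were. The number at an unadjusted p under 0.05 was 8 with mitochondrial genes left out, 8 with array weights, 6 without pig 30 and 5 without the filter on low values. The 17 genes were measured in the same hearts and are not independent measures. The widest differences were those of LUC7L, a U1 snRNP-associated factor (-0.64, adjusted p = 0.993), and TIA1, an RNA-binding splicing regulator (-0.60, adjusted p = 0.993). TIA1 stood at 6.93, 8.42 and 9.37 TPM in Group 1 and at 11.1, 11.3 and 17.1 TPM in Group 2, with no overlap in any of the 18 alternatives. The 17 genes stayed lower in all 19 settings, with a median between -0.60 and -0.36. The number separated ranged from 2 after median-of-ratios scaling (7.55% of all genes) to 17 without pig 30 (34.6% of all genes), and was 14 without pig 25 (13.0% of all genes).

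In the other comparisons the same list had 15 of 17 genes lower between Groups 3 and 2 (median -0.20, 0 called by limma, 0 at an unadjusted p under 0.05, 0 separated), with NKTR (-0.37, and -0.63 to -0.19 over the alternatives) and RBM25 (-0.34, and -0.56 to -0.18) widest. Between Groups 1 and 3, 17 of 17 were lower (median -0.27), with 0 called, 1 at an unadjusted p under 0.05 and 2 separated downward, where 6.01% and 4.51% of all genes were. Over the 19 settings, 11 (without pig 31) to 17 genes were lower and 0 to 5 separated downward (5 without pig 25, with 15.6% of all genes) between Groups 3 and 2. In the other comparison 15 (without pig 34) to 17 were lower and 2 to 11 separated (11 without pig 31, with 15.4% of all genes). The gene with the widest difference was LUC7L3, at 45.6, 44.5 and 57.0 TPM in Group 1 against 87.3, 87.0 and 57.9 TPM in Group 3 (-0.63, adjusted p = 0.829). LUC7L followed with -0.49. The median between Groups 3 and 2 ran from -0.34 without pig 34 to -0.025 without pig 31, and that between Groups 1 and 3 from -0.45 without pig 31 to -0.12 without pig 34.

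**Figure D5:**
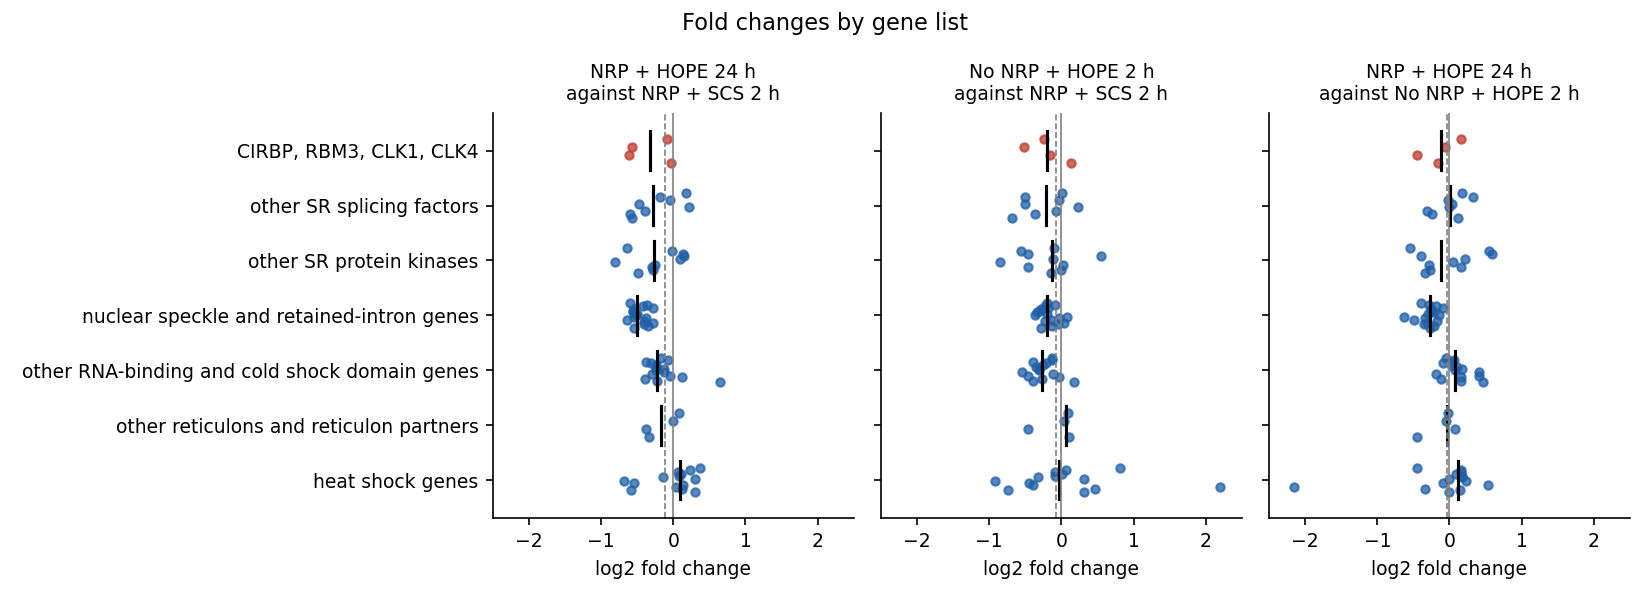
Log2 fold change (x axis) of each tested gene (points) by list (rows) in the 3 comparisons, with the list median (black bar), no difference (solid line) and the median of all genes (dashed line). All 17 nuclear speckle and retained-intron genes lie left of 0 between Groups 1 and 2, and the point near 2.2 among the heat shock genes is DNAJB1.

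Other RNA-binding and cold shock domain genes, relatives of CIRBP and RBM3, had 15 of 18 written genes tested. Their medians were -0.22, -0.27 and 0.076 in the comparisons of Groups 1 and 2, 3 and 2, and 1 and 3, with 13, 14 and 4 of 15 lower and 0 called by limma in each. The first median was -0.008 without pig 27 (8 of 15 lower), the second -0.10 without pig 31, and the third -0.13 without pig 31 (11 of 15 lower). HNRNPA1, an abundant nuclear RNA-binding protein, stood at 328, 450 and 408 TPM in Group 3 against 549, 606 and 564 TPM in Group 2 (-0.55, unadjusted p = 0.042, adjusted p = 0.684). The groups were separated in all 18 alternatives, and this was the 1 gene of the list at an unadjusted p under 0.05 in any comparison, where 7.22% of all genes were. Of the 15 genes, 4 were separated downward between Groups 3 and 2, where 10.3% of all genes were. ELAVL1 differed by -0.46 between the same groups (adjusted p = 0.828). CARHSP1, a cold shock domain protein, stood at 6.78, 13.0 and 31.8 TPM in Group 1 and at 4.84, 11.1 and 12.4 TPM in Group 2 (0.64, adjusted p = 0.993), and the difference was 0.093 without pig 30. DDX17, an RNA helicase, differed by -0.39 between the same groups. CARHSP1 (0.46) and HNRNPA1 (0.41) had the widest differences between Groups 1 and 3, that of CARHSP1 running from -0.087 without pig 30 to 0.95 without pig 27. Other reticulons and their partners, relatives of RTN3, had 4 genes tested of 8 written. Their medians were -0.17, 0.061 and -0.029, with 0 called and 0 at an unadjusted p under 0.05, and each took both signs as single hearts were left out (-0.28 to 0.059, -0.23 to 0.21 and -0.31 to 0.26). The widest were ATL3 (-0.38) and ATL2 (-0.34) between Groups 1 and 2, ATL3 (-0.46) and ATL2 (0.11) between Groups 3 and 2, and ATL2 (-0.45) and ATL3 (0.081) between Groups 1 and 3.

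Heat shock genes, which respond to heat and to misfolded protein, had 14 of 18 written genes tested and medians of 0.093, -0.039 and 0.12, each of which changed sign when 1 heart was left out (-0.032 without pig 28, 0.071 without pig 31 and -0.041 without pig 30). DNAJB1, a co-chaperone of the HSP70 system, was the 1 called gene of all these lists. It stood at 310, 123 and 189 TPM in Group 3, against 38.0, 42.5 and 43.5 TPM in Group 2 and 45.5, 38.4 and 43.8 TPM in Group 1. DNAJB1 was higher in Group 3 than in Group 2 by 2.20 (SE 0.316, limma adjusted p = 0.0228) and lower in Group 1 than in Group 3 (-2.16, adjusted p = 0.0222). The call against Group 2 held in 10 of 18 alternatives (range of adjusted p 0.00624 to 0.134). The alternatives that lost it included, but were not limited to, those without pig 24, 25, 31 or 34. The call against Group 1 held in 8 of 18 (0.00628 to 0.206). Those that lost it likewise included, but were not limited to, the fits without pig 27, 28, 30, 31 or 34. The fold itself stayed between 1.82 and 2.52 against Group 2 and between -2.48 and -1.82 against Group 1, with the groups separated in all 18 alternatives of both. HSF2 (-0.92) and HSPH1 (0.82, chosen after its value was seen) also had an unadjusted p under 0.05 between Groups 3 and 2, and neither was called. The widest differences between Groups 1 and 2 were those of HSF2 (-0.69) and CHORDC1 (-0.59), and DNAJB4 (0.53) followed DNAJB1 between Groups 1 and 3. In the same Group 3 hearts CIRBP and RBM3 overlapped the other groups.

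The cell composition of the biopsies bears on these levels, because in bulk tissue fewer cells of a type and less RNA per cell cannot be told apart. The labels name cardiomyocytes, but the biopsies held whole myocardium. Cardiomyocyte markers (6 of 8 written in the table) summed to 18220 to 33030 TPM in Group 1, 22420 to 29440 TPM in Group 2 and 22580 to 29800 TPM in Group 3. Their medians were -0.17, -0.19 and 0.042 in the comparisons of Groups 1 and 2, 3 and 2, and 1 and 3, with 0 called by limma, and the first and the last took both signs over the settings (-0.53 to 0.14 and -0.26 to 0.33). Endothelial markers (7 of 8) were lower in Group 1 than in Group 2 for all 7 genes (median -0.54, -0.34 without pig 27 and -0.83 without pig 30; 0 called by limma, 0 at an unadjusted p under 0.05, 2 separated downward against 7.32% of all genes), with sums of 316 to 690.4 TPM in Group 1, 607 to 707 TPM in Group 2 and 347 to 728 TPM in Group 3. Their median was -0.33 between Groups 3 and 2 (5 of 7 lower, 0 at an unadjusted p under 0.05; 0.074 without pig 31) and -0.31 between Groups 1 and 3 (6 of 7 lower, 1 at an unadjusted p under 0.05; 0.054 without pig 33), with 0 called by limma in either. The lowest endothelial sums came from pigs 27 and 31, the hearts with the lowest size factors, which were also the lowest 2 hearts for the mean of the 4 genes, the SR factors, the other SR kinases, the RNA-binding genes, the reticulons and the leukocyte markers. Fibroblast (5 of 6 in the table, 5 tested), mural (5 of 6, 4 tested), leukocyte (9 of 12, 7 tested) and erythroid (3 of 5, 2 tested) markers had medians of 0.11, -0.40, -0.12 and 1.09 between Groups 1 and 2, with 0 called by limma. The fibroblast and leukocyte medians changed sign when 1 heart was left out (-0.001 without pig 24 and 0.27 without pig 27). Over the settings the mural median ran from -0.58 to -0.17 and the erythroid median from 0.67 to 1.81. Their medians were 0.27, 0.17, -0.31 and 1.33 between Groups 3 and 2 and -0.062, -0.43, -0.13 and -0.24 between Groups 1 and 3, again with 0 called. With 1 heart left out the leukocyte median became 0.11 without pig 29 between Groups 3 and 2, and between Groups 1 and 3 the fibroblast, leukocyte and erythroid medians became 0.062, 0.30 and 0.48 without pig 27. Some single markers had an unadjusted p under 0.05, and those described here were named after their values were seen. S100A9, a neutrophil protein, stood at 0.357, 0.774 and 2.66 TPM in Group 1, 8.02, 4.78 and 1.79 TPM in Group 2 and 0.343, 0.199 and 0.0 TPM in Group 3. Its difference was -1.35 between Groups 1 and 2 (unadjusted p = 0.0117, limma adjusted p = 0.792; -2.03 to -0.96 over the alternatives) and -2.17 between Groups 3 and 2 (unadjusted p = 0.000389, adjusted p = 0.14; -4.16 to -1.78). The latter was called in 2 of 17 alternatives, array weights and without pig 29 (range of adjusted p 0.02 to 0.605), with Group 3 below Group 2 in all 17. In the main fit 10.3% of all genes were separated downward between these groups. HBB, the beta chain of hemoglobin, was higher by 1.27 in Group 1 than in Group 2, with overlap (unadjusted p = 0.0284, limma adjusted p = 0.943; 0.80 to 2.05 over the alternatives). The methods describe donor packed red blood cells in the HOPE perfusate of Groups 1 and 3, but not in the storage solution of Group 2. The part of these added cells in the erythroid markers was not tested. In Group 3 HBB stood above each Group 2 heart (1.52, unadjusted p = 0.0111, limma adjusted p = 0.516), as did the other erythroid marker tested. Of all genes, 4.44% were separated upward between Groups 3 and 2, and 7.22% had an unadjusted p under 0.05. ACTA2, the smooth muscle actin of mural cells, was lower in each Group 1 heart than in each Group 3 heart (-1.28, unadjusted p = 0.00316, limma adjusted p = 0.402; -1.55 to -0.81 over the alternatives). Between Groups 1 and 3, 4.51% of all genes were separated downward. Fibroblast sums were 763 to 1116 TPM in Group 1, 669 to 982 TPM in Group 2 and 1020 to 1150 TPM in Group 3. Mural sums were 190.0 to 311, 261 to 383 and 360.2 to 429 TPM, leukocyte sums 65.9 to 156, 85.3 to 198 and 111 to 225 TPM, and erythroid sums 73.9 to 425, 71.4 to 133 and 222 to 373 TPM. MYH11, CSF3R and SLC4A1 were under 1 TPM in every heart. The part of these markers, and of the mitochondrial share, in the values of CLK1, CLK4 and the speckle genes was not tested.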

How the data were processed

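RNA sequencing of apex biopsies from 9 porcine hearts in 3 groups of 3 was analysed, with each heart assigned by the pig number in its label. According to the submitters' processing notes and the methods, reads were demultiplexed (bcl2fastq 2.17), trimmed (Trimmomatic 0.36) and mapped (STAR 2.5.2b), unique exonic reads were counted (featureCounts, Subread 1.5.2), and differential expression was called with DESeq2. The authors deposited TPM values that sum to 1000000 in each heart over 25149 genes. The genome build and the gene lengths behind TPM are not given in the sources used here, so no coordinates are printed. Of the listed genes, 12006 had no symbol, and 748 of these were named here by Ensembl identifier. A further 9 heart columns, which no label ties to a sample, were not used.

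TPM are not counts, so limma 3.58.1 (R 4.3.3) was fitted to log2(TPM + 1) for the 11782 genes that reached 1 TPM in 3 or more hearts, with 1 mean for each group, trended eBayes variances, two-sided tests and Benjamini-Hochberg adjustment in each comparison. Single values and correlations were tested by exact permutation (numpy 2.4.6, with ranks from scipy 1.17.1). The fit was tested on simulated data in which genes varied independently, so that test does not cover shifts shared by many genes of a heart. Each comparison was repeated under 18 alternatives (pseudocount 0.1, other filters, scalings and variance models, and each heart left out). The members and gene lists were chosen with earlier results of these data known. From each list except the marker and mitochondrial lists, the 2 genes with the widest difference in a comparison and any called gene were named. PRPF4B and HSPH1 fell outside this rule and were chosen after their values were seen. The marker lists are given by their sums and medians, by S100A9, HBB and ACTA2, chosen likewise, and by the markers under 1 TPM in every heart. With 3 hearts in a group, the spread between pigs sets the precision.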

Additional observations from a re-analysis of the deposited data

How the results depend on the processing

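None of CIRBP, RBM3, CLK1 and CLK4 was called under any of the 18 alternatives of the 3 comparisons. Of 216 alternative fold changes, 202 kept their direction and 14 changed sign. Between Groups 1 and 2 the number of the 4 genes at an unadjusted p under 0.05, which was 0, became 1 without a filter on low values, 2 with mitochondrial genes left out, 1 with array weights and 0 to 1 with a heart left out. The median over only the 3 genes named by symbol, an alternative added after seeing the data, was -0.57. CIRBP became 0.12 under median-of-ratios scaling and 0.004 under quantile normalization, and ran from -0.36 to 0.19 with a heart left out. RBM3 became 0.065 under median-of-ratios scaling, 0.083 under array weights, and ran from -0.22 to 0.089 with a heart left out. Between Groups 3 and 2 CIRBP ran from -0.019 to 0.25 and CLK1 from -0.41 to 0.072 with a heart left out, and between Groups 1 and 3 CIRBP ran from -0.49 to 0.053, RBM3 from -0.005 to 0.33 and CLK4 from -0.24 to 0.14. The cause of these sign changes was not tested. On deviations from the group means r changed sign for CIRBP with RBM3 (0.012) and RBM3 with CLK4 (-0.11). With median-of-ratios scaling it did so for CIRBP with CLK1 (-0.44), CIRBP with CLK4 (-0.64) and CLK4 with the mitochondrial share (0.45), and with mitochondrial genes left out for CIRBP with CLK1 (-0.15) and CIRBP with CLK4 (-0.13).

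Counts of called genes over the whole table moved widely: 3 between Groups 1 and 2 became 60 with array weights and 0 with a pseudocount of 0.1, 6 between Groups 3 and 2 became 94 and 19 under array weights and median-of-ratios scaling but 1 without the filter, without pig 24 or without pig 25, and 6 between Groups 1 and 3 became 14 with array weights, 16 without pig 33 and 0 without pig 30. No paired analysis was possible because the pig numbers of the 3 groups differ. Depth is unknown from TPM, so counting error could not be separated from the spread between hearts.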
